A study of Mus musculus with 20 samples.

Results

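A set of 10 genes of blood vessel endothelium was followed in breast tumors of PyMT mice, namely *Pecam1*, *Cdh5*, *Cldn5*, *Emcn*, *Kdr*, *Flt1*, *Tek*, *Tie1*, *Sox17* and *Sox18*. They were taken by name from the 45706 gene identifiers in the count files, with their symbols assigned through the mouse annotation. They had been picked with their scaled counts in the tumors of both genotypes known, so their difference between the tumors is given as a description without a test. Their counts in cultured tumor cells were also part of that choice, whereas the comparisons between cell groups were not.

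RNA sequencing data were available for 8 tumors and 12 cell samples. The tumors were snap-frozen breast tumors of 18-week-old PyMT mice on a C57BL/6N background, 4 from *MMTV-cre;Ctsd*-/- animals and 4 from CTSD-competent controls (labelled wild type). PyMT mice express the polyoma middle T oncogene, and in the *MMTV-cre;Ctsd*-/- mice a Cre recombinase deletes *Ctsd*, the gene of the lysosomal protease cathepsin D. Both transgenes are driven by the MMTV promoter of mammary epithelium, so the deletion is not directed at vessels. The cells were spontaneously immortalized PyMT tumor cells from end-stage tumors, of *Ctsd*+/+ and of *MMTV-cre;Ctsd*-/- origin (*Ctsd*-/- cells). They were kept in medium with 1% fetal calf serum for 10 days (1% FCS) or for 12 weeks (1% FCS LT), and each of the 4 groups has 3 replicates. Because each genotype of cells is taken to be 1 line, with the number of source animals not stated, genotype and line cannot be told apart in the cells.

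Endothelial cells line every blood vessel. They hold to each other through adhesion molecules and tight junctions, they read growth factors of the VEGF and angiopoietin families through receptor tyrosine kinases, and their identity is kept by transcription factors of the SOX and ETS families. In tumors these cells are part of the stroma, next to fibroblasts, mural cells (pericytes and smooth muscle), adipocytes and leukocytes, while the PyMT tumor cells are epithelial.

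Totals on genes were 49725437 to 64291587 reads in tumors and 33622831 to 40239762 reads in cells, and levels are given as CPM, the counts scaled to a common library size. As a check of the labels, *Ctsd* was at 1860, 2617, 1781 and 2532 CPM in control tumors 1 to 4 and at 797, 360.2, 1295 and 1233 CPM in *MMTV-cre;Ctsd*-/- tumors 1 to 4, and in cells it was at 1267 to 4199 CPM in *Ctsd*+/+ samples and at 114 to 192 CPM in *Ctsd*-/- samples. All control tumors share a sequencing run and all *MMTV-cre;Ctsd*-/- tumors share a different one, and hence the run cannot be told apart from the genotype in tumors. In a bulk tumor sample, fewer cells of a type and less RNA per cell cannot be told apart either. Skeletal muscle markers stood out in control tumor 4 and *MMTV-cre;Ctsd*-/- tumor 1, where the mean log2 CPM of 5 such genes was 7.05 and 4.97, against −1.36 to 1.88 in the other 6 tumors. Epithelial markers were high in all tumors, with a mean log2 CPM of 8 genes of 8.96 to 9.47 in controls and 8.97 to 9.22 in *MMTV-cre;Ctsd*-/- tumors.

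Over the 10 genes, the mean level was higher in *MMTV-cre;Ctsd*-/- tumors than in controls for each gene, but the higher levels came mainly from 2 of the 4 tumors. The log2 fold change (log2 FC, *MMTV-cre;Ctsd*-/- minus control, fitted with edgeR) was above 0 for all 10 genes and above 1 for 7, with a median of 1.25 and a range from 0.35 (*Sox18*) to 2.44 (*Cldn5*), where the median over all 18617 genes tested was 0.00073. Above 0 were 50.1% of all genes, and nothing is read from this count because the genes were chosen on this contrast. None of the 10 genes separated the genotypes, as at least 1 *MMTV-cre;Ctsd*-/- tumor lay within the range of the control tumors for each of them. Of all genes, 2.26% were higher in every *MMTV-cre;Ctsd*-/- tumor than in every control and 1.89% were lower.

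**Figure D1:**
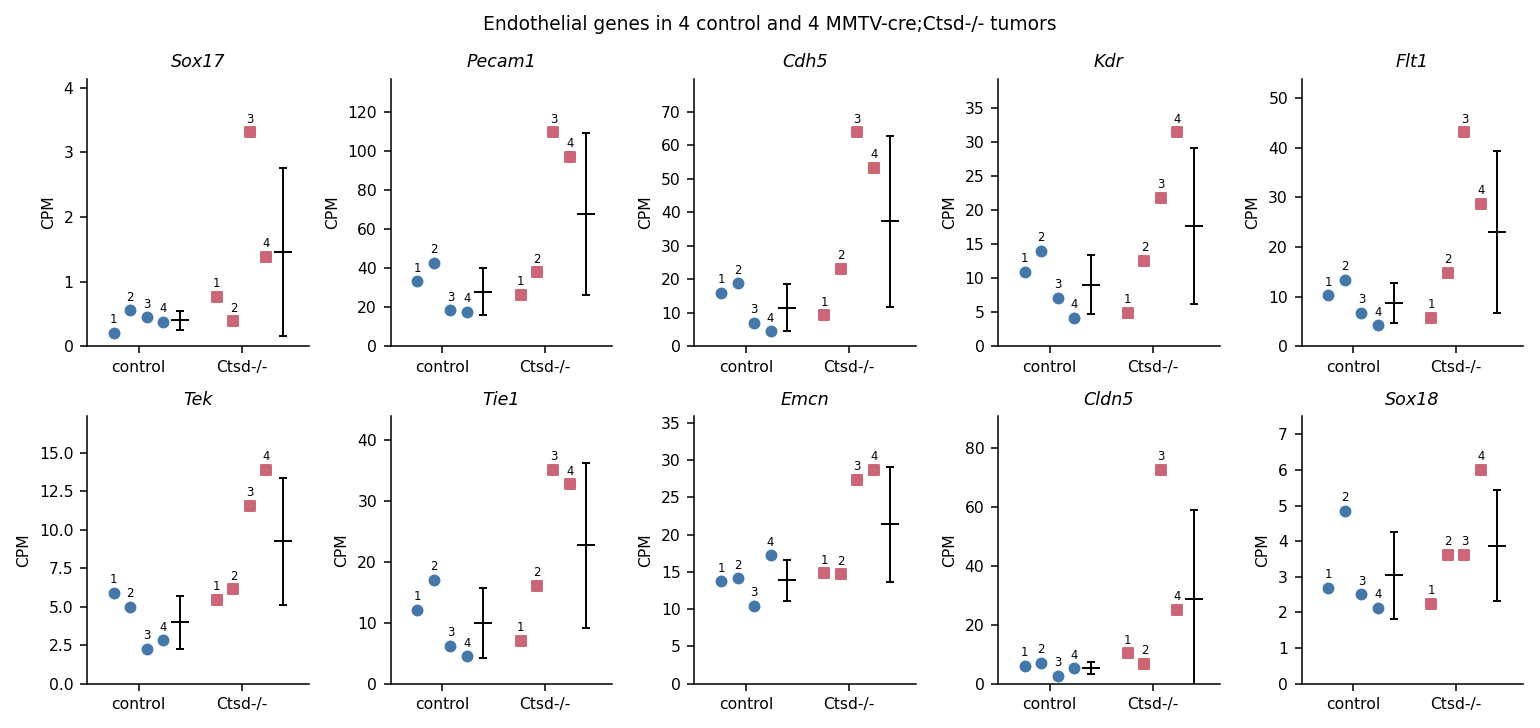
CPM (y axis, each from 0) of the 10 endothelial genes in control tumors (blue circles) and *MMTV-cre;Ctsd*-/- tumors (red squares), with the tumor number above each point and the mean ± SD of each group (n = 4) in black, cut at 0 where the SD exceeds the mean. Tumors 3 and 4 of the *MMTV-cre;Ctsd*-/- group are the highest points for most genes, and tumors 1 and 2 sit near or among the controls.

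*Pecam1* and *Cdh5* encode adhesion molecules of the junctions between endothelial cells, CD31 and VE-cadherin. *Pecam1* (chr11:106654217-106750628, minus strand, GRCm38) was at 33.2, 42.5, 18.3 and 17.6 CPM in control tumors 1 to 4 and at 26.4, 37.7, 109 and 96.9 CPM in *MMTV-cre;Ctsd*-/- tumors 1 to 4. Tumors 3 and 4 of the *MMTV-cre;Ctsd*-/- group thus lay above every control, and tumors 1 and 2 lay within the control range. The means were 27.9 ± 12.1 CPM (SD, n = 4) and 67.6 ± 41.6 CPM (SD, n = 4), with a log2 FC of 1.28 (SE 0.476). *Cdh5* (chr8:104101625-104144511, plus strand) was at 16.0, 18.8, 6.98 and 4.44 CPM in the controls and at 9.19, 23.0, 63.8 and 53.1 CPM in the *MMTV-cre;Ctsd*-/- tumors. For this gene tumor 2 also exceeded the highest control, whereas tumor 1 did not. Its log2 FC was 1.69 (SE 0.613).

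*Cldn5*, the claudin of endothelial tight junctions, had the largest fold of the 10 genes and the widest spread. *Cldn5* (chr16:18776847-18778262, plus strand) was at 6.11, 7.13, 2.67 and 5.23 CPM in control tumors 1 to 4 and at 10.3, 6.78, 72.8 and 25.1 CPM in *MMTV-cre;Ctsd*-/- tumors 1 to 4. *MMTV-cre;Ctsd*-/- tumor 3 was 13.8 times the control mean, and tumor 2 was the only one of the 4 within the control range. The group means were 5.28 ± 1.91 CPM (SD, n = 4) and 28.7 ± 30.4 CPM (SD, n = 4) and the log2 FC was 2.44 (SE 0.684). Without tumor 3 the log2 FC was 1.41. *Emcn* (chr3:137341067-137432185, plus strand) encodes endomucin, a sialomucin of the vessel surface that is most abundant in capillaries and veins. It was at 13.7, 14.1, 10.4 and 17.2 CPM in the controls and at 14.8, 14.7, 27.4 and 28.7 CPM in the *MMTV-cre;Ctsd*-/- tumors, with a log2 FC of 0.63 (SE 0.286). *Emcn* varied least among the controls, by a factor of 1.66 from the lowest to the highest tumor, against 2.28 to 4.23 for the other 9 genes.

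*Kdr* and *Flt1* encode VEGF receptors 2 and 1. KDR transmits most of the growth signal of VEGF-A in endothelium, and FLT1 binds VEGF-A, VEGF-B and placental growth factor and also exists as a soluble form that captures ligand. *Kdr* (chr5:75932827-75978458, minus strand) was at 10.9, 14.0, 7.13 and 4.21 CPM in control tumors 1 to 4 and at 4.91, 12.5, 21.9 and 31.5 CPM in *MMTV-cre;Ctsd*-/- tumors 1 to 4. *MMTV-cre;Ctsd*-/- tumor 1 was close to the lowest control and tumor 4 was the highest of all tumors, and the log2 FC was 0.96 (SE 0.533). It was 0.53 without *MMTV-cre;Ctsd*-/- tumor 4. *Flt1* (chr5:147561604-147726011, minus strand) was at 10.2, 13.4, 6.73 and 4.19 CPM in the controls and at 5.77, 14.7, 43.1 and 28.7 CPM in the *MMTV-cre;Ctsd*-/- tumors. Here tumors 2, 3 and 4 exceeded the highest control and tumor 1 did not, and the log2 FC was 1.42 (SE 0.561). It was 0.92 without *MMTV-cre;Ctsd*-/- tumor 3.

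The 250 bases upstream of the *Flt1* and *Kdr* start sites (RefSeq, GRCm38.p6, minus strand) are shown because, of the 10 genes, only these receptor genes reached the level of the lowest tumor in some of the cultured cells described further on. Capitals mark particular forms of the binding motif of ETS transcription factors, AGGAAG or CGGAAG, searched on both strands. Other stretches with GGAA, which both windows hold, were not searched and are in lower case. *Flt1* (chr5:147726012-147726261) held 2 matches and *Kdr* (chr5:75978456-75978705) none, with a GC content of 70.4% and 61.6%.
Flt1: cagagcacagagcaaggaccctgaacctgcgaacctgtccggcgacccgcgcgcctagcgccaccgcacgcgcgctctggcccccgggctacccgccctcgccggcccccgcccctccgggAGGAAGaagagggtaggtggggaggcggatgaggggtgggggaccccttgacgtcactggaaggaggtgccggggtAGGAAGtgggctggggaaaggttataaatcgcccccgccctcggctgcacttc
Kdr: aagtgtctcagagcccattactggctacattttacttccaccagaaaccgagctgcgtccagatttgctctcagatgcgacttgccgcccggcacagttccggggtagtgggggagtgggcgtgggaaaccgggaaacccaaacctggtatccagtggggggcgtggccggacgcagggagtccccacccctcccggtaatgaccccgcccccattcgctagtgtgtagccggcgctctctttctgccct
Of the 10 genes, 6 had an entry in the promoter table (*Kdr*, *Flt1*, *Tek*, *Tie1*, *Emcn* and *Cldn5*). The searched forms were present in 3 of these 6 windows, with 2 matches each in *Flt1*, *Tie1* and *Emcn*, against 39.0% of 27025 promoter windows of the same length.

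*Tek* and *Tie1* encode TIE2, the receptor of angiopoietins, and its partner TIE1. *Tek* (chr4:94739289-94874976, plus strand) was at 5.88, 4.97, 2.24 and 2.82 CPM in control tumors 1 to 4 and at 5.45, 6.12, 11.5 and 13.9 CPM in *MMTV-cre;Ctsd*-/- tumors 1 to 4. Tumor 1 of the *MMTV-cre;Ctsd*-/- group was within the control range and tumor 2 was just above it. The log2 FC of *Tek* was 1.22 (SE 0.418). *Tie1* (chr4:118471191-118490061, minus strand) was at 12.1, 17.0, 6.13 and 4.46 CPM in the controls and at 6.97, 16.0, 35.1 and 32.7 CPM in the *MMTV-cre;Ctsd*-/- tumors, with tumors 1 and 2 inside the control range and a log2 FC of 1.19 (SE 0.541).

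*Sox17* and *Sox18* belong with *Sox7* to the SOXF group of transcription factors, which act in arterial and lymphatic development. *Sox17* (chr1:4490931-4497354, minus strand) was the scarcest of the 10 genes, with 14, 36, 27 and 15 counts in control tumors 1 to 4 and 50, 25, 221 and 83 counts in *MMTV-cre;Ctsd*-/- tumors 1 to 4. On the CPM scale these were 0.211, 0.556, 0.448 and 0.380 in the controls and 0.759, 0.384, 3.31 and 1.38 in the *MMTV-cre;Ctsd*-/- tumors. Tumor 3 stood highest and tumor 2 lay within the control range. The log2 FC was 1.86 (SE 0.657), and it was 1.07 without *MMTV-cre;Ctsd*-/- tumor 3. The locus overlaps the annotated transcript *Gm37587* on the other strand, whose reads cannot be told apart from those of *Sox17* in the unstranded tumor counts.

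*Sox18* (chr2:181669836-181671640, minus strand) differed least between the genotypes. It was at 2.68, 4.85, 2.50 and 2.13 CPM in control tumors 1 to 4 and at 2.25, 3.61, 3.62 and 6.01 CPM in *MMTV-cre;Ctsd*-/- tumors 1 to 4. Only tumor 4 of the *MMTV-cre;Ctsd*-/- group exceeded the highest control, and the log2 FC was 0.35 (SE 0.388). It was 0.055 without that tumor and 0.67 without control tumor 2. *Sox7* is not one of the 10 genes and was tested. It was at 1.76, 3.60, 0.763 and 0.660 CPM in the controls and at 1.00, 1.43, 4.87 and 4.28 CPM in the *MMTV-cre;Ctsd*-/- tumors, and its log2 FC of 0.77 (SE 0.662) did not pass the threshold of an unadjusted p under 0.1 (adjusted p = 0.710).

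Levels differed widely between the 10 genes when set per kilobase of annotated exon. Over the 8 tumors, *Pecam1* was highest with a median of 5.69 CPM per kb, followed by *Cldn5* at 4.91 and *Cdh5* at 4.13 CPM per kb. *Tie1* at 2.85, *Emcn* at 2.73, *Sox18* at 1.94, *Kdr* at 1.30, *Tek* at 1.20 and *Flt1* at 0.873 CPM per kb came next. *Sox17* was lowest at 0.105 CPM per kb. Each gene overlapped with its neighbor in this order in the range over the tumors, and *Sox17* had its highest tumor at 0.694 CPM per kb, below the lowest tumor for *Emcn*, at 1.92 CPM per kb.

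The tumors could be compared by the level of all 10 genes over the control mean. In control tumors 1 to 4 the median over the genes was 1.19, 1.53, 0.703 and 0.666 times the control mean of each gene. In *MMTV-cre;Ctsd*-/- tumors 1 to 4 it was 0.871, 1.37, 3.73 and 3.46 times that mean. Thus *MMTV-cre;Ctsd*-/- tumors 1 and 2 were within the span of the control tumors, and tumors 3 and 4 were above it. *MMTV-cre;Ctsd*-/- tumor 3 was above every control for 9 of the 10 genes and tumor 4 for 10, tumor 2 for 3 and tumor 1 for 2, where these tumors were above every control for 23.5%, 23.3%, 21.5% and 15.3% of all genes. Tumor 3 was the highest tumor for 6 genes and tumor 4 for the other 4, while control tumor 4 was the lowest for 6. The median log2 FC of the 10 genes was 0.93 without *MMTV-cre;Ctsd*-/- tumor 3, 1.01 without tumor 4, and at most 1.57, which was the value without control tumor 2.

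Within the genotypes the 10 genes varied together from tumor to tumor. After the mean of each genotype was removed, the Pearson correlation of log2 CPM over the 8 tumors had a median of 0.76 over the 45 pairs of genes, from 0.31 to 0.99, and was above 0.5 for 38 pairs. These are descriptions, as all genes share the same 8 libraries. *Pecam1* followed the mean of the other 9 genes most closely (r = 0.996) and *Sox17*, with its low counts, least (r = 0.577).

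The other genes most like the 10 endothelial genes were ranked by the same correlation with their mean, over 8 tumors and among 13203 genes with an average log2 CPM above 1, for which the median r was 0.05. The 10 highest were *Erg* (r = 0.993), *Akt2* (0.991), *Rin3* (0.989), *Jag1* (0.988), *Adcy4* (0.986), *Myo5a* (0.984), *Ptprb* (0.984), *Robo4* (0.980), *Nhsl2* (0.979) and *Epb41l2* (0.978). *Erg* is an ETS transcription factor of endothelium, *Jag1* a Notch ligand, *Ptprb* the endothelial phosphatase VE-PTP and *Robo4* an endothelial guidance receptor. By list, the median r was 0.80 for 25 other pan-endothelial genes, 0.76 for 13 mural cell markers, 0.65 for 10 white adipocyte markers, 0.35 for 8 epithelial markers and −0.018 for 8 macrophage markers.

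**Figure D2:**
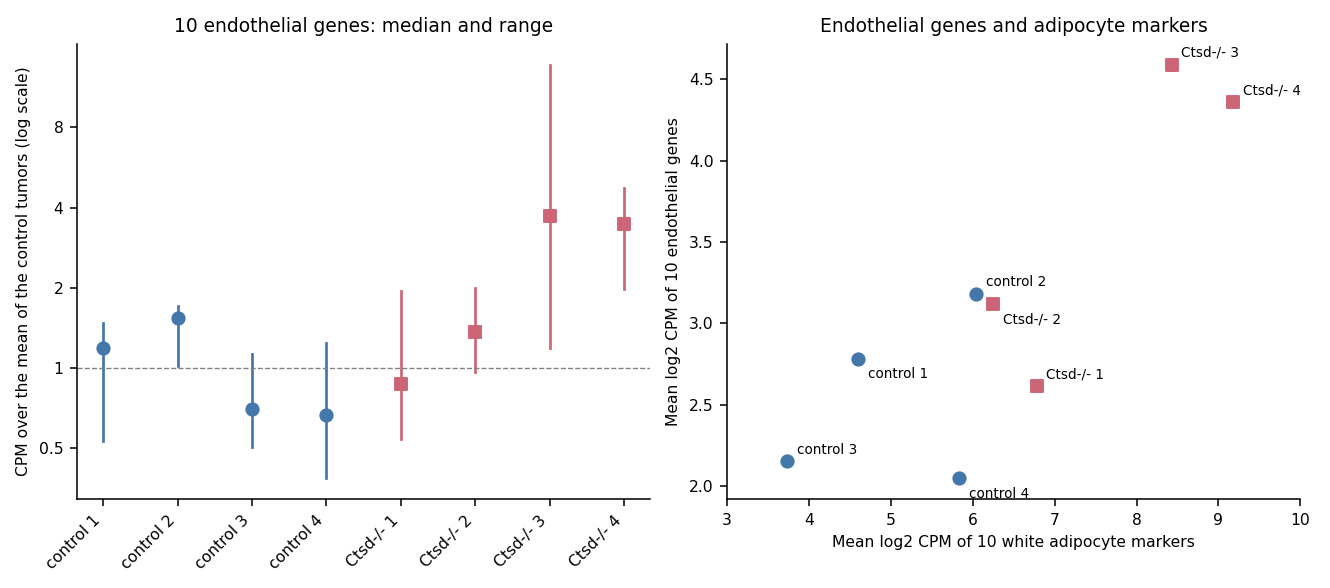
Left, CPM of the 10 endothelial genes in each tumor over the mean of the 4 control tumors (log scale), as the median (symbol) and the range (line) over the genes, with a dashed line at 1. Right, mean log2 CPM of the same 10 genes against that of 10 white adipocyte markers in the 8 tumors, where *MMTV-cre;Ctsd*-/- tumors 3 and 4 have the highest values on both axes and control tumor 3 the lowest adipocyte value.

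White adipocyte markers were highest in the tumors with the highest endothelial levels, while the order of the other tumors differed. The mean log2 CPM of 10 white adipocyte markers was 4.60, 6.04, 3.73 and 5.83 in control tumors 1 to 4 and 6.78, 6.25, 8.43 and 9.18 in *MMTV-cre;Ctsd*-/- tumors 1 to 4. Every *MMTV-cre;Ctsd*-/- tumor was above every control, and tumors 3 and 4, which had the highest endothelial levels, had the highest adipocyte levels as well. Control tumor 4, at an adipocyte value of 5.83, had the lowest mean log2 CPM of the 10 endothelial genes, 2.05. That mean was 2.61 in *MMTV-cre;Ctsd*-/- tumor 1, below control tumors 1 and 2 at 2.78 and 3.18. All 10 adipocyte markers rose at an unadjusted p under 0.1, with a median log2 FC of 2.79, and 8.44% of all genes did. Among them were *Lipe* and *Pnpla2*, lipases of fat stores, with a log2 FC of 3.06 (SE 0.729) and 1.93 (SE 0.496), and the adrenergic receptor *Adrb3* with 2.67 (SE 0.793) (adjusted p = 0.365, 0.401 and 0.445). The cultured tumor cells expressed *Lipe* (7.48 to 33.4 CPM) and *Pnpla2* (46.3 to 108 CPM) too, the 2 of the 10 markers with enough counts to be tested there. The summed level of the 10 markers was 745 to 4378 CPM in controls and 3476 to 20113 CPM in *MMTV-cre;Ctsd*-/- tumors, and none was at 0 in any of the groups.

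With the adipocyte score as a covariate in the fit, the log2 FC of the endothelial genes was close to 0. The median log2 FC of the 10 genes was −0.062 with this covariate, and 5 of the 10 remained above 0, from 0.026 for *Cldn5* to 0.23 for *Sox17*. The lowest value was −0.40 for *Sox18*. With the mean log2 CPM of 8 epithelial markers as the covariate instead, the median was 1.43 and all 10 genes stayed above 0. As the adipocyte score itself separates the genotypes, its part and the part of genotype cannot be told apart in these 8 tumors.

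Among 28 other pan-endothelial genes about as many passed the test as did not. Of these, 15 rose at an unadjusted p under 0.1, as did 8.44% of all genes, and the other 13 did not pass, and 27 of the 28 had a log2 FC above 0, with a median of 0.92. *Robo4* was at 5.99, 5.91, 2.77 and 2.84 CPM in control tumors 1 to 4 and 4.63, 9.41, 27.9 and 29.5 CPM in *MMTV-cre;Ctsd*-/- tumors 1 to 4, with a log2 FC of 2.02 (SE 0.570). Again tumors 3 and 4 stood far above the other tumors. Without *MMTV-cre;Ctsd*-/- tumor 3, 9 of the 28 genes rose, and with the adipocyte covariate 0 rose, 2 fell and the median log2 FC was −0.26. After adjustment over all genes none of the 28 passed 0.05 in edgeR (lowest adjusted p = 0.416, 12 at an unadjusted p under 0.05) or in limma-voom, and 1 passed in DESeq2. Of all 18617 genes, 1 passed in edgeR, 2 in limma-voom and 265 in DESeq2, and 1665 were at an unadjusted p under 0.05 in edgeR. As the 28 genes mark the same cells in the same 8 tumors, they are not an independent sample of the difference.

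Of 18 endothelial transcription factors 17 had enough counts to be tested. Of these, 7 rose (*Erg*, *Tal1*, *Gata2*, *Ets1*, *Klf4*, *Nr2f2* and *Epas1*), against 8.44% of all genes, the others did not pass, and the median log2 FC was 0.61. Apart from *Erg*, these were named after their values had been seen. Of the 18 genes, 13 passed the filter in the cultured tumor cells as well, among them *Gata2*, *Ets1*, *Klf4*, *Nr2f2* and *Epas1*. *Ets1* was at 113 to 192 CPM in the cells and at 19.4 to 65.4 CPM in the tumors, scaled separately. *Erg* was at 1.66, 1.82, 1.03 and 0.939 CPM in controls and 1.41, 2.04, 4.79 and 4.43 CPM in *MMTV-cre;Ctsd*-/- tumors and passed with a log2 FC of 1.21 (SE 0.460) (adjusted p = 0.544). The count of 7 became 4 without control tumor 3 and also without *MMTV-cre;Ctsd*-/- tumor 3 or tumor 4, and 0 with the adipocyte covariate. None passed an adjusted p of 0.05 in edgeR, limma-voom or DESeq2, and 4 were at an unadjusted p under 0.05 in edgeR, against 1665 of all 18617 genes.

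**Figure D3:**
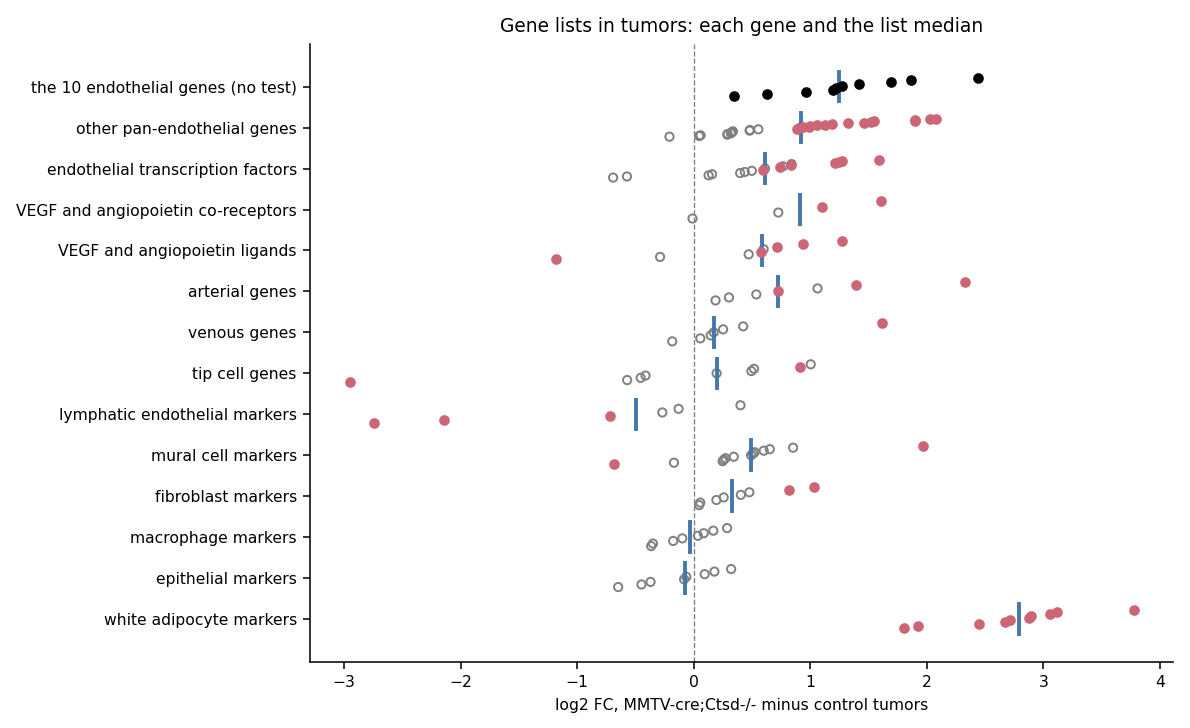
Fitted log2 FC between *MMTV-cre;Ctsd*-/- and control tumors (x axis) for every tested gene of each list, with red for an unadjusted p under 0.1, open grey for genes that did not pass, black for the 10 endothelial genes (no test) and a blue bar at the list median. The pan-endothelial median lies at 0.92, the white adipocyte median at 2.79, and the macrophage and epithelial medians near 0.

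Of 8 ligands of the VEGF and angiopoietin families 4 rose (*Vegfa*, *Vegfb*, *Vegfd* and *Angpt4*) and 1 fell (*Pgf*, placental growth factor), with a median log2 FC of 0.59. Of all genes 8.44% rose and 8.27% fell. *Vegfa*, the main ligand of KDR, was at 4.55, 4.83, 6.60 and 5.96 CPM in control tumors 1 to 4 and 7.08, 7.69, 7.83 and 10.1 CPM in *MMTV-cre;Ctsd*-/- tumors 1 to 4. All 4 *MMTV-cre;Ctsd*-/- tumors, including tumors 1 and 2, were above all controls, and the log2 FC was 0.58 (SE 0.245) (adjusted p = 0.555). *Pgf*, which binds FLT1, was at 42.2, 54.6, 90.1 and 57.4 CPM in the controls and 22, 25.0, 42.0 and 18.8 CPM in the *MMTV-cre;Ctsd*-/- tumors. This gene ran opposite to its receptor, with every *MMTV-cre;Ctsd*-/- tumor below every control and a log2 FC of −1.18 (SE 0.309) (adjusted p = 0.416).

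*Vegfb*, a ligand of FLT1 that is known from fat-storing and oxidative tissues, was at 9.47, 12.5, 11.1 and 7.96 CPM in controls and 12.5, 11.7, 18.6 and 24.4 CPM in *MMTV-cre;Ctsd*-/- tumors, with a log2 FC of 0.71 (SE 0.282). *Vegfd*, a ligand of FLT4, was at 2.04, 4.51, 2.49 and 1.70 CPM in controls and 2.87, 3.46, 6.13 and 13.6 CPM in *MMTV-cre;Ctsd*-/- tumors, with a log2 FC of 1.28 (SE 0.527). Both passed the unadjusted threshold while their groups overlapped (adjusted p = 0.544 and 0.552). *Angpt4*, an angiopoietin with only 17 to 68 counts per tumor, passed as well at a log2 FC of 0.93 (SE 0.507), but did not under 10 of 16 alternatives. *Angpt2*, the angiopoietin made by endothelium itself, had a log2 FC of 0.60 (SE 0.537), *Vegfc* of 0.47 (SE 0.328) and *Angpt1* of −0.29 (SE 0.267), none of which passed. With the adipocyte covariate *Vegfa* was at 0.46, *Vegfb* at 0.084 and *Vegfd* at −0.28, none of them past the threshold, and *Pgf* still passed.

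Of the co-receptors, *Nrp1*, a neuropilin that presents VEGF-A to KDR, was at 53.6, 60.8, 17.8 and 22 CPM in control tumors 1 to 4 and 37.3, 46.2, 111 and 137 CPM in *MMTV-cre;Ctsd*-/- tumors 1 to 4. *Ptprb*, whose product dephosphorylates TIE2 and VE-cadherin, was at 15.6, 17.6, 7.0 and 5.17 CPM and 8.55, 17.2, 58.9 and 54.0 CPM. Both had the pattern of the 10 endothelial genes, with *MMTV-cre;Ctsd*-/- tumors 3 and 4 high and tumors 1 and 2 inside the control range. Their log2 FC was 1.10 (SE 0.509) and 1.61 (SE 0.612) and passed the unadjusted threshold (adjusted p = 0.563 and 0.544). *Nrp2*, at 0.73 (SE 0.476), and *Flt4*, the VEGF-C receptor, at −0.011 (SE 0.719), did not pass. The log2 FC of *Nrp1* and *Ptprb* was −0.47 and −0.21 with the adipocyte covariate.

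**Figure D4:**
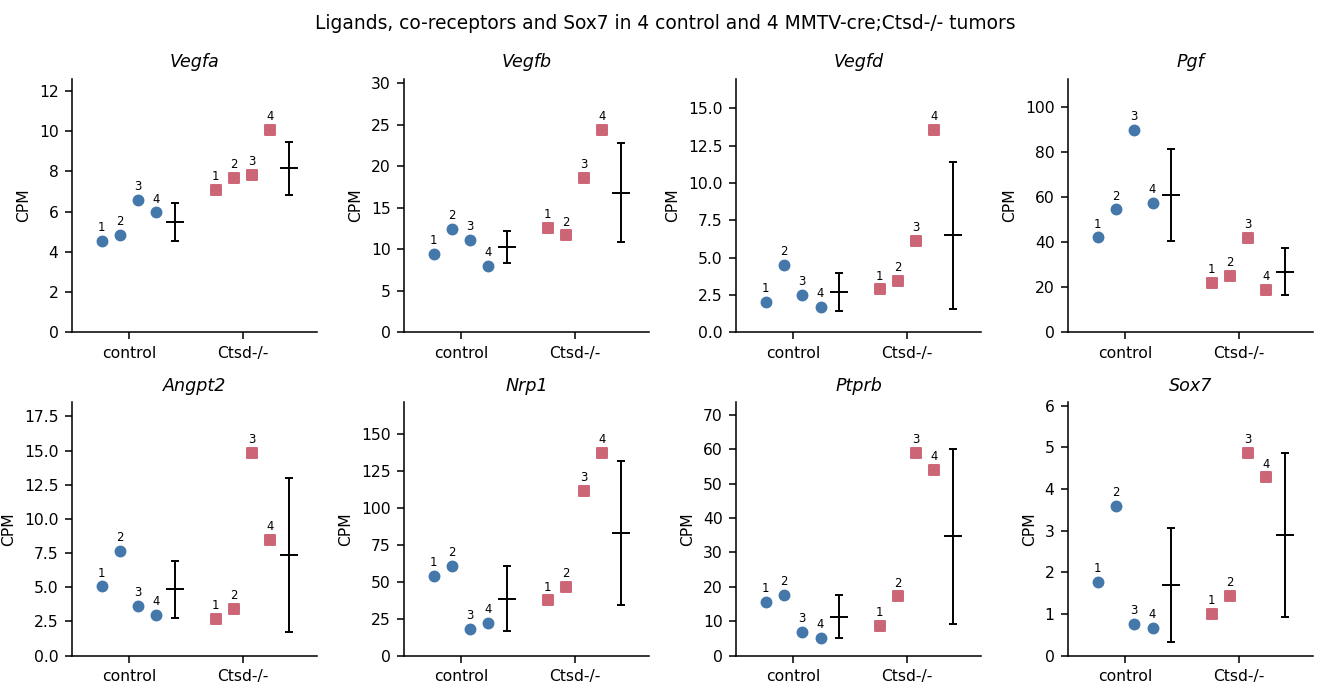
CPM (y axis, each from 0) of 5 ligands, *Nrp1*, *Ptprb* and *Sox7* in control tumors (blue circles) and *MMTV-cre;Ctsd*-/- tumors (red squares), numbered, with mean ± SD (n = 4) in black. *Vegfa* and *Pgf* separate the genotypes in opposite directions, whereas *Nrp1* and *Ptprb* are high in *MMTV-cre;Ctsd*-/- tumors 3 and 4 only.

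Lists for single vessel types and for other cells were less uniform. Of all genes 8.44% rose and 8.27% fell. Of 7 arterial genes 3 rose, namely *Notch4*, *Gja4* and *Sema3g*, and *Notch4*, an endothelial Notch receptor, did so without overlap at 1.96, 1.45, 1.14 and 1.17 CPM in controls and 2.51, 2.89, 5.86 and 3.80 CPM in *MMTV-cre;Ctsd*-/- tumors (log2 FC 1.39 (SE 0.369), adjusted p = 0.416). Of 7 venous genes *Ackr1* rose, and of 9 genes of sprouting (tip) cells *Dll4* rose and *Kcne3* fell, while 8.27% of all genes fell. Of 6 lymphatic endothelial markers none rose and 3 fell, *Pdpn* without overlap at 48.4, 70.0, 49.0 and 54.5 CPM in controls and 43.3, 28.2, 35.7 and 27.6 CPM in *MMTV-cre;Ctsd*-/- tumors (log2 FC −0.72 (SE 0.215)), and *Mmrn1* and *Ccl21a* with overlap. *Pdpn* is also made by fibroblasts, and *Ccl21a* has near-identical copies, so that its count is uncertain. Except for *Notch4* and *Pdpn*, these single genes were named after their values had been seen.

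The same shares of all genes, 8.44% higher and 8.27% lower, stand beside each of the following counts. Of 9 genes of fatty acid uptake in capillaries 6 rose, with a list median of 2.47. The highest log2 FC were those of *Aqp7*, a glycerol channel, at 3.72 (SE 0.738), *Car4*, a carbonic anhydrase named after its values had been seen, at 3.42 (SE 1.16) and *Lpl*, lipoprotein lipase, at 3.01 (SE 0.776). Adipocytes express *Aqp7*, *Lpl*, *Cd36* and *Fabp4* too, and *Gpihbp1*, which anchors the lipase to capillary endothelium and is named after its values had been seen, was at 19.4, 25.4, 31.2 and 69.4 CPM in controls and 61.9, 34.1, 158 and 165 CPM in *MMTV-cre;Ctsd*-/- tumors. Among 6 inhibitors of angiogenesis only *Adamts1* rose, at 1.47 (SE 0.367) without overlap (adjusted p = 0.381). Of 10 hypoxia response genes 1 rose, *Pfkfb3*, with a list median of −0.25. Of 13 mural cell markers *Cspg4* rose and *Kcnj8* fell, with a median of 0.49. Of 8 fibroblast markers 2 rose, *Pdgfra* and *Dpt*, and 4 of 6 brown adipocyte markers rose, *Ucp1*, *Elovl3*, *Kcnk3* and *Cidea*. Of all these, *Pfkfb3*, *Cspg4*, *Kcnj8*, *Pdgfra*, *Dpt*, *Cidea* and *Mylpf* were named after their values had been seen. No macrophage (8), epithelial (8), red blood cell (5) or platelet (2) marker that was tested passed the threshold in edgeR, at an unadjusted p under 0.05 either, and of 5 skeletal muscle markers 1 fell (*Mylpf*).

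Over all 18617 genes only nonagouti (*a*), a coat color gene, passed an adjusted p of 0.05 in edgeR (log2 FC 10.03, SE 0.621), which is 0.00537% of the genes tested. None of the 176 other list genes did so, and 52 of them were at an unadjusted p under 0.05, against 1665 of all genes. In limma-voom 0 of the 176 passed, against 2 of all genes, and in DESeq2 17, against 265 of all genes.

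In the cultured tumor cells most of the 10 endothelial genes were nearly silent. *Sox17* and *Cldn5* had 0 counts in each of the 12 samples, and *Emcn* and *Sox18* had at most 2 counts in any sample. A count of 0 allows up to 3 counts in a library, which is at most 0.0916 CPM here, so the lowest tumor level was at least 2.30 times that limit for *Sox17* and at least 29.1 times for *Cldn5*. *Tie1* reached 5 counts in a *Ctsd*+/+ 1% FCS LT sample and was at 0 in the 9 samples outside that group. For 8 of the 10 genes, all but *Kdr* and *Flt1*, the highest cell sample was below the lowest tumor in CPM, as scaled within tumors and within cells separately. Limits and intervals from counts cover counting error only.

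*Flt1* was the exception, and its level differed with both genotype and culture. It had 2702, 1644 and 1109 counts in *Ctsd*+/+ 1% FCS samples 1 to 3 (81.0, 50.2 and 29.0 CPM) and 211, 195 and 109 counts in *Ctsd*-/- 1% FCS samples 1 to 3 (5.13, 5.34 and 3.22 CPM). In 1% FCS LT it had 8, 7 and 16 counts in *Ctsd*+/+ samples and 159, 97 and 71 counts in *Ctsd*-/- samples. The groups did not overlap within either culture, and the order of the genotypes in one culture was the opposite of that in the other. In 1% FCS *Flt1* fell in *Ctsd*-/- relative to *Ctsd*+/+ cells with a log2 FC of −3.55 (SE 0.405, adjusted p = 2.72e-05), and in 1% FCS LT it rose with 3.29 (SE 0.501, adjusted p = 3.21e-04). From 1% FCS to 1% FCS LT it fell in *Ctsd*+/+ cells by 7.60 (SE 0.526, adjusted p = 8.21e-07) on the log2 scale. In *Ctsd*-/- cells that difference was −0.77 (SE 0.389, adjusted p = 0.328), and the interaction was 6.83 (SE 0.637, adjusted p = 1.90e-05).

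**Figure D5:**
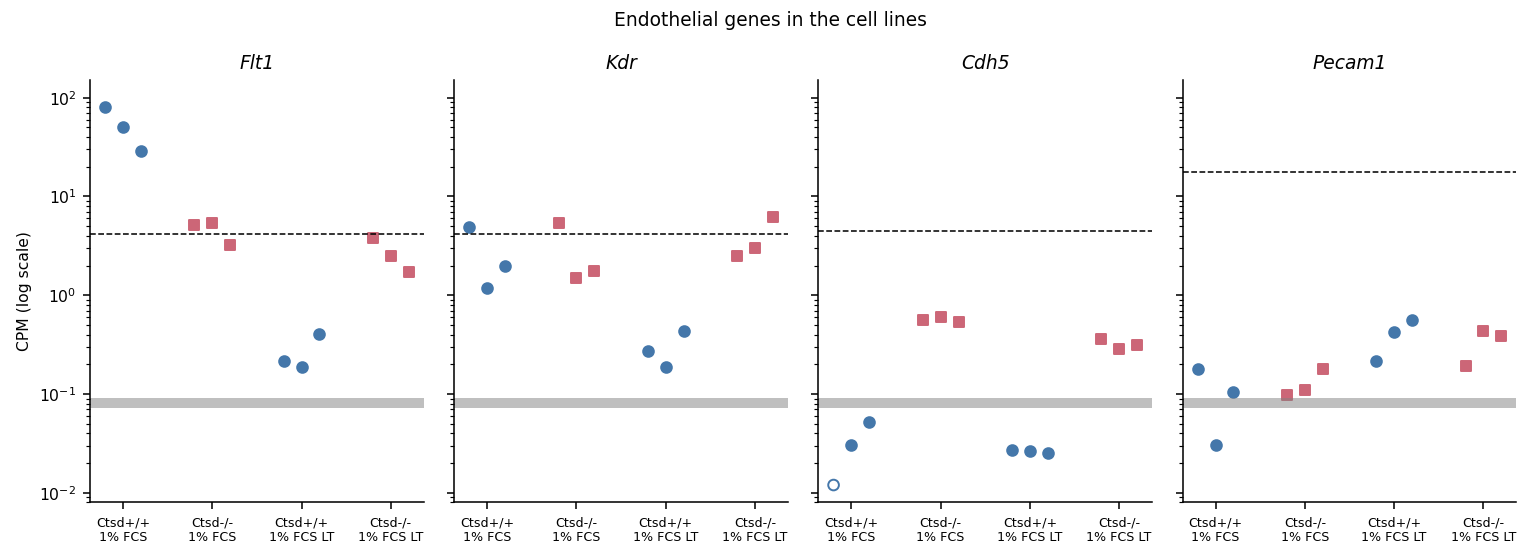
CPM (log scale) of *Flt1*, *Kdr*, *Cdh5* and *Pecam1* in the 12 cell samples, with *Ctsd*+/+ as blue circles and *Ctsd*-/- as red squares. The grey band marks the CPM of 3 counts in the libraries, the dashed line the lowest tumor, and an open circle at the bottom a sample with 0 counts. *Flt1* is highest in *Ctsd*+/+ 1% FCS cells, and *Cdh5* and *Pecam1* stay below the lowest tumor in all samples.

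*Kdr*, the other VEGF receptor, had 164, 39 and 76 counts in *Ctsd*+/+ and 220, 55 and 60 counts in *Ctsd*-/- 1% FCS samples 1 to 3. In 1% FCS LT it had 10, 7 and 17 counts in *Ctsd*+/+ samples and 104, 117 and 257 counts in *Ctsd*-/- samples. Levels overlapped between genotypes in 1% FCS and were lower in all *Ctsd*+/+ 1% FCS LT samples. Between genotypes its log2 FC in 1% FCS was 0.098 (SE 0.598, adjusted p = 0.905), and *Kdr* rose in *Ctsd*-/- cells in 1% FCS LT with 3.70 (SE 0.703, adjusted p = 0.00142). In *Ctsd*+/+ cells it fell with the longer culture by 3.17 (SE 0.699, adjusted p = 0.00300) on the log2 scale, and the interaction was 3.60 (SE 0.914, adjusted p = 0.0113). Replicate 1 of both 1% FCS groups and replicate 3 of both 1% FCS LT groups came from other sequencing runs than the 8 remaining samples, and they had the highest *Kdr* count of their group, in each of the 4 groups. Within the 8 samples of the shared run, a comparison added after the counts had been seen, the log2 FC of *Kdr* was 3.57 (SE 0.402, adjusted p = 4.11e-04) between genotypes in 1% FCS LT and that of *Flt1* was −3.21 (SE 0.359, adjusted p = 2.67e-04) in 1% FCS.

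*Cdh5* was low but differed between the lines. It had 0, 1 and 2 counts in *Ctsd*+/+ and 23, 22 and 18 counts in *Ctsd*-/- 1% FCS samples. In 1% FCS LT it had 1 count in each *Ctsd*+/+ sample and 15, 11 and 13 counts in *Ctsd*-/- samples. All *Ctsd*-/- samples were above all *Ctsd*+/+ samples in both cultures, and *Cdh5* rose in both comparisons (adjusted p = 4.89e-05 and 3.51e-04). *Cdh5* passed the filter on low counts only through *Ctsd*-/- samples, so its tests between genotypes are not read as independent support. As each *Ctsd*+/+ group held 3 counts in all, the size is given as the ratio of scaled summed counts, 19.7 (95% exact conditional interval 6.43 to 97.9) in 1% FCS and 12.2 (3.86 to 61.5) in 1% FCS LT. The highest cell sample, at 0.602 CPM, was below the lowest tumor, at 4.44 CPM.

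*Pecam1* had 6, 1 and 4 counts in *Ctsd*+/+ and 4, 4 and 6 counts in *Ctsd*-/- 1% FCS samples. In 1% FCS LT it had 8, 16 and 22 counts in *Ctsd*+/+ and 8, 17 and 16 counts in *Ctsd*-/- samples. With the longer culture it rose in *Ctsd*+/+ cells with a log2 FC of 1.90 (SE 0.577, adjusted p = 0.0180), a call that was lost within the shared run (adjusted p = 0.0547), without *Ctsd*+/+ 1% FCS replicate 2 (adjusted p = 0.0629) and without *Ctsd*+/+ 1% FCS LT replicate 3 (adjusted p = 0.0707). *Pecam1* passed the filter on low counts only through 1% FCS LT samples, so this call is not read as independent support either. *Tek* did not pass the filter on low counts. Its 49 counts in *Ctsd*+/+ 1% FCS sample 1 were the highest, followed by 8 in *Ctsd*+/+ 1% FCS LT sample 3, and all other samples had 7 counts or fewer.

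Of the 4 genes that passed the filter in cells (*Pecam1*, *Kdr*, *Flt1* and *Cdh5*), 2 were called between genotypes in 1% FCS and 3 in 1% FCS LT with thresholds of 0.05 on the adjusted p and of 1 on the size of the log2 FC. Among all 15178 genes, 10.3% were called higher and 14.6% lower in 1% FCS, and 9.24% and 10.1% in 1% FCS LT. With the longer culture, 3 of the 4 were called in *Ctsd*+/+ cells, against 11% of all genes higher and 12.3% lower. For *Ctsd*-/- cells 0 of the 4 were called in edgeR, limma-voom or DESeq2, and 1.11% and 0.369% of all genes were called higher and lower in edgeR. In that comparison 2 of the 4 were at an unadjusted p under 0.05 in edgeR, as were 2727 of all 15178 genes. The interaction was called for 2 of the 4, against 11% and 8.12% of all genes. The 6 genes outside the filter were too low to be tested. *Cdh5* passed the filter only through *Ctsd*-/- samples and *Pecam1* only through 1% FCS LT samples. The counts of calls that include them are therefore a description.

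The *Ctsd*+/+ 1% FCS cells, which had the highest *Flt1* level, also stood apart in markers of other cells. The summed level of 8 fibroblast markers was 626 to 2616 CPM in *Ctsd*+/+ 1% FCS samples, against 4.90 to 11.5 CPM in *Ctsd*-/- 1% FCS, 3.03 to 7.68 CPM in *Ctsd*+/+ 1% FCS LT and 8.54 to 14.9 CPM in *Ctsd*-/- 1% FCS LT samples. Mural cell markers summed to 763 to 1440 CPM in *Ctsd*+/+ 1% FCS and to 60.9 to 92.9 CPM in *Ctsd*-/- 1% FCS samples, and in 1% FCS LT to 409 to 592 CPM in *Ctsd*+/+ samples, which had the lowest *Flt1* level, and to 46.3 to 151 CPM in *Ctsd*-/- samples. The mean sum of 484 CPM in *Ctsd*+/+ 1% FCS LT cells was mostly *Notch3*, at a mean of 458 CPM and named after its values had been seen. With the longer culture of *Ctsd*+/+ cells, 4 of 7 tested mural cell markers fell and 1 rose, against 12.3% and 11% of all genes. The same *Ctsd*+/+ 1% FCS samples had the lowest summed level of 8 epithelial markers, 992 to 2135 CPM against 5782 to 12657 CPM in the other 9 samples. Between genotypes in 1% FCS, 4 of 4 tested fibroblast markers fell in *Ctsd*-/- cells and 7 of 7 tested epithelial markers rose. In 1% FCS LT, where *Flt1* differed in the other direction, 1 of 4 fibroblast markers rose and none fell, and of 7 epithelial markers none rose and 1 fell. The mean fibroblast sum of 1585 CPM in *Ctsd*+/+ 1% FCS cells was mostly *Col1a1*, a collagen chain, at a mean of 1437 CPM. *Col1a1* was at a mean of 3.04 CPM in *Ctsd*-/- 1% FCS cells, whereas *Lum* and *Dpt*, also fibroblast markers, had at most 1 count in any sample. These 3 were named after their values had been seen. The part of these markers in the *Flt1* difference was not tested.

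The other pan-endothelial genes were unequal in the cells. Of 28, 13 passed the filter and 15 did not. Between genotypes in 1% FCS 5 of the 13 rose and 2 fell, against 10.3% and 14.6% of all genes. In 1% FCS LT 6 rose and 2 fell, against 9.24% and 10.1% of all genes. Among the 13, *Palmd* (26.4 to 243 CPM) and *Podxl* (4.19 to 67.5 CPM), named after their values had been seen, had the highest levels, followed by *Rasgrp3* (0.054 to 42.8 CPM) and *Cd93* (0.480 to 11.8 CPM). *Robo4*, which is largely restricted to endothelium, did not exceed 2 counts in any sample.

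The tumor cells expressed ligands of the endothelial receptors, with a difference between the lines. *Vegfa* was at a mean of 284 CPM in *Ctsd*+/+ and 69.1 CPM in *Ctsd*-/- 1% FCS cells, and at 292 and 89.9 CPM in 1% FCS LT. It fell in *Ctsd*-/- cells with a log2 FC of −2.04 (SE 0.401, adjusted p = 0.00137) and −1.70 (SE 0.397, adjusted p = 0.00510). *Pgf* was at 13.6 and 57.8 CPM in 1% FCS and at 0.333 and 54.0 CPM in 1% FCS LT. It rose in *Ctsd*-/- cells in both cultures, with a log2 FC of 2.09 (SE 0.521, adjusted p = 0.00599) and 7.33 (SE 0.723, adjusted p = 1.40e-05). For both ligands the sign was opposite to that in the tumors, where *Vegfa* was higher and *Pgf* lower in the *MMTV-cre;Ctsd*-/- group, and the difference between tumors and cells was not tested. *Vegfb* rose in *Ctsd*-/- cells in 1% FCS LT with 1.07 (SE 0.173, adjusted p = 4.63e-04), and in 1% FCS, at 0.78 (SE 0.172, adjusted p = 0.00295), its difference was smaller than the fold threshold.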

How the data were processed

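RNA of 8 tumors and 12 cell samples was sequenced on a HiSeq4000. The authors trimmed reads with Trimmomatic, aligned them to GRCm38 with STAR and deposited read counts per gene, unstranded and for each strand. The unstranded counts were used for tumors and those of the second strand for cells, since that column held 52.8 to 53.7% of the counts of both strand columns together in tumors and 97.1 to 97.3% in cells. Reads not assigned to a single gene were left out, namely unmapped reads, reads with several alignments, and reads on no gene or on several genes. In the unstranded counts these were 16.8 to 32.7% of reads, and the reads on several genes, included in that share, were 3.30 to 15.6%. Symbols and coordinates came from GENCODE M21 for 45143 of 45706 identifiers. Genes were filtered with filterByExpr, scaled by TMM and tested with edgeR 4.0.16 (quasi-likelihood F-test, R 4.3.3), tumors and cells in separate fits, with 18617 and 15178 genes and p-values adjusted by Benjamini-Hochberg across all. Calls needed an unadjusted p under 0.1 in tumors, and an adjusted p under 0.05 with a log2 FC beyond 1 in cells. limma-voom (limma 3.58.1), DESeq2 1.42.0, covariates, a replicate block and leaving out each sample were alternatives. Scripts were tested on simulated data. Per the study's methods the cell replicates were independent experiments. That each used the same line of its genotype is read from the study's wording and is not stated there.

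The 10 endothelial genes and all gene lists were chosen with earlier results of these data known. Named were the 10 genes, all counted ligands and co-receptors, *Sox7*, up to 3 genes per other list that passed without overlap of the genotypes (largest log2 FC first), and the 10 genes most correlated with the endothelial genes.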

Additional observations from a re-analysis of the deposited data

Results flagged for a closer look

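Among 62 values of groups of 4 tumors examined for a sample far from the others, 2 stood out, and chance flags about 1 in 20 groups. The mean log2 CPM of the VEGF and angiopoietin ligands in control tumors was highest in control tumor 2, at 2.61, with a gap to the next tumor of 0.861 of the whole range. The mean log2 CPM of macrophage markers was also highest in control tumor 2, at 6.62, with a gap of 0.871 of the range. No endothelial gene had such a tumor in either genotype.

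Both VEGF receptor genes responded to long culture differently in the 2 cell lines by the test of the difference itself. The difference between the log2 FC of *Ctsd*-/- and *Ctsd*+/+ cells (1% FCS LT minus 1% FCS) was 6.83 for *Flt1* and 3.60 for *Kdr* (edgeR, adjusted p = 1.90e-05 and 0.0113).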

How the results depend on the processing

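At an unadjusted p under 0.1, *MMTV-cre;Ctsd*-/- tumors had 1572 genes higher and 1540 lower than controls. Without the filter on low counts these were 2703 and 2734. With the epithelial score as covariate 865 were lower. With the adipocyte score as covariate 627 were higher and 516 lower, the median log2 FC was −0.062 for the 10 endothelial genes, 0.12 for the transcription factors (0 higher) and −0.26 for the other pan-endothelial genes (0 higher, 2 lower), and the log2 FC turned to −0.28 for *Vegfd*, −0.99 for *Angpt2*, −0.47 for *Nrp1*, −0.39 for *Nrp2*, −0.21 for *Ptprb* and −1.17 for *Sox7*. limma-voom called 1 transcription factor lower. The cause of these shifts was not tested.

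Leaving out 1 tumor at a time gave 980 to 2156 genes higher and 827 to 2309 lower, a median log2 FC of the 10 endothelial genes of 0.93 to 1.57, 4 to 9 transcription factors higher and 0 to 1 lower, 9 to 17 other pan-endothelial genes higher, and a log2 FC of −0.36 to 0.48 for *Flt4*. The fewest genes were called without *MMTV-cre;Ctsd*-/- tumor 4. *Angpt4* did not pass in 10 of 16 alternatives, *Nrp1* in 6, *Vegfd* in 3, and *Vegfa*, *Vegfb* and *Ptprb* in 2 each.

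In tumors, replicate numbers did not pair the samples (correlation of same-numbered deviations −0.303 to −0.0075). In cells these correlations were −0.295 to 0.362, and their sign differed between pairs of groups. They were negative for every replicate number between the cultures of *Ctsd*+/+ cells. Between the genotypes in 1% FCS they were positive for every replicate number, up to 0.362 for replicate 1. Replicate 1 of both 1% FCS groups came from another run than the other replicates, so pairing and run cannot be told apart there. With a replicate block in the tumor fit, 711 genes were lower, 4 transcription factors and 6 other pan-endothelial genes were higher, and *Flt4* was at 0.17.

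In cells, counts of called endothelial genes did not move, except that 2 instead of 3 were called for the longer culture of *Ctsd*+/+ cells within the shared sequencing run and in leave-one-out fits (2 to 3). Differences that were not called changed sign in single fits. Leaving out 1 sample, *Pecam1* ranged from −0.15 to 0.83 between genotypes in 1% FCS and from −0.54 to 0.071 in 1% FCS LT, *Kdr* from −0.71 to 0.86 between genotypes in 1% FCS and from −0.069 to 1.25 with longer culture of *Ctsd*-/- cells, and *Cdh5* from −0.62 to 0.68 with longer culture of *Ctsd*+/+ cells, where limma-voom gave 0.14.

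The comparison rests on 4 tumors per genotype, each genotype in its own run. Depth bears most on *Sox17*, with 14 to 221 counts per tumor, and in cells on the 6 endothelial genes below the filter, where a library at 0 counts allows up to 3.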
